A study of Rattus norvegicus with 15 samples.

Results

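The genes described here are 9 ubiquitin genes and neuronal ubiquitin enzymes: the polyubiquitin gene Ubb, the activating enzymes Uba1 and Uba6, the HECT-type ligases Ube3a, Nedd4 and Nedd4l, the F-box protein Fbxo2, and the deubiquitinases Uchl1 and Usp14. They were chosen by name, and all 9 were found among the 22314 genes of the count table and passed the filter on low counts, as did 14880 genes in all. RNA-seq counts came from 15 libraries of dorsal CA1, the output field of the hippocampus, of wild-type male Sprague-Dawley rats aged 8 to 9 weeks. All rats had received siRNA by stereotaxic injection into dorsal CA1. The 5 Rnf20-labelled trained libraries (replicates 4, 8, 14, 18 and 20) came from rats given Accell siRNA against Rnf20 and, 5 days later, contextual fear conditioning, in which a place is paired with shock. The 5 scrambled trained libraries (replicates 5, 6, 10, 15 and 16) came from rats given scrambled siRNA and the same training, and the 5 naive libraries (replicates 1, 2, 9, 11 and 12) from rats given scrambled siRNA and no training. No group joined Rnf20 siRNA with the naive state, and every control had also had siRNA injected. The labels do not say that each library is 1 animal, so the p-values measure the spread between these libraries only.

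Ubiquitin is a small protein that cells attach to other proteins. An E1 enzyme activates it, an E2 enzyme carries it, and an E3 ligase chooses the substrate. Chains of ubiquitin mark many proteins for the proteasome, and deubiquitinases trim or remove them. In the hippocampus, protein degradation by this route is known to take part in synaptic plasticity and in the storage of fear memories. The comparison of trained with naive rats asks whether the RNA of these genes differs after training. Training joined the place, the shock and learning, which cannot be told apart here. No group had the place or the shock alone. The labels do not give the time between training and dissection. The comparison of the trained groups asks whether the RNA differs under siRNA to Rnf20, which encodes a ligase for ubiquitin on histone H2B.

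For Rnf20 itself, the gene the siRNA was designed against, no decrease was detected under its label. Its level was 44.6, 42.5, 42.8, 38.3 and 41.9 CPM (read counts scaled to a common library size) in Rnf20-labelled trained libraries 4, 8, 14, 18 and 20, against 46.6, 48.5, 36.4, 46.2 and 38.5 CPM in scrambled trained libraries 5, 6, 10, 15 and 16. In naive libraries 1, 2, 9, 11 and 12 it was 44.7, 40.3, 41.6, 39.1 and 43.5 CPM. The trained groups overlapped fully, and the log2 fold change of Rnf20-labelled trained over scrambled trained was -0.04 (SE 0.08, an interval from -13.9% to 9.73%). The group is therefore called Rnf20-labelled throughout. Total counts ran from 12537250 to 18458527 in the Rnf20-labelled trained libraries, from 15342480 to 20644425 in the scrambled trained libraries and from 14249375 to 17046535 in the naive libraries. Markers of CA1 pyramidal neurons were present in all libraries, with summed levels of 499 to 897 CPM, 271 to 1570 CPM and 474 to 1019 CPM in the same order of groups. Of the 8 CA1 markers listed, 7 were in the table and 5 passed the filter on low counts. Markers of CA3, dentate and striatal neurons were present too. Those of striatal neurons summed to 128 to 303 CPM, 102 to 648 CPM and 150 to 364 CPM in the same order of groups. Scrambled trained library 10 had the highest striatal score (mean log2 CPM of the markers, 6.18) and the lowest CA1 score (5.03). Scrambled trained library 6 had the highest CA1 score (7.08). The part of the tissue taken in the values of the 9 genes was not tested. Rnf20-labelled trained libraries 14 and 18 and scrambled trained libraries 10 and 15 lay farthest out on the first principal component, which held 35.7% of the variance.

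Promoter sequences of the 9 genes were looked up because several of them varied together across libraries. All 9 had an entry in RefSeq (rat assembly GRCr8), each a window of 300 bases, 250 before the annotated start and 50 after it. The windows of Uba1, Nedd4l, Usp14 and Ubb are shown because these 4 genes were among the most alike across libraries, that of Uchl1 because its level went with neuronal markers, and that of Fbxo2 because its level stood apart from the others. They are, on GRCr8, chrX:4080640-4080939 on the minus strand (Uba1), chr18:60663720-60664019 on the plus strand (Nedd4l), chr18:1330287-1330586 on the minus strand (Usp14), chr10:47746673-47746972 on the plus strand (Ubb, the first of its 2 annotated starts), chr14:41849368-41849667 on the minus strand (Uchl1) and chr5:163875829-163876128 on the plus strand (Fbxo2). Capitals mark matches to the motifs searched.
Uba1: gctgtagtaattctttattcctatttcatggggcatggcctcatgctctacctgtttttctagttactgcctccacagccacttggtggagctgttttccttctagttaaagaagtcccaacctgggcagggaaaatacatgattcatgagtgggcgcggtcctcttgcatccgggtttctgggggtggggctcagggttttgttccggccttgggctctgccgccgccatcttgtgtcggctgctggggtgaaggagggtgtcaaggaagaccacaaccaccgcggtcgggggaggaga
Nedd4l: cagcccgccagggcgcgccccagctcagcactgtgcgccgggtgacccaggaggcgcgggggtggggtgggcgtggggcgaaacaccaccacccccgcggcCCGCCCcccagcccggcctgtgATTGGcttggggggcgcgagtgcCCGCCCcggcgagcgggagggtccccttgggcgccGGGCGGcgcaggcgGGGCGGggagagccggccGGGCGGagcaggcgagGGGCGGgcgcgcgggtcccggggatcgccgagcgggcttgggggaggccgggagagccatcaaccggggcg
Usp14: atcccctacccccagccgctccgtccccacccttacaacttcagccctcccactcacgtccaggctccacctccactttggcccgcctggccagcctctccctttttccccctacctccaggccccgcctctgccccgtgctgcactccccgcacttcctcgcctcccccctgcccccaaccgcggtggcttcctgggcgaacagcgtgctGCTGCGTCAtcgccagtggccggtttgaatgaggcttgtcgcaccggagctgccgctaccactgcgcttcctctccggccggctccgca
Ubb: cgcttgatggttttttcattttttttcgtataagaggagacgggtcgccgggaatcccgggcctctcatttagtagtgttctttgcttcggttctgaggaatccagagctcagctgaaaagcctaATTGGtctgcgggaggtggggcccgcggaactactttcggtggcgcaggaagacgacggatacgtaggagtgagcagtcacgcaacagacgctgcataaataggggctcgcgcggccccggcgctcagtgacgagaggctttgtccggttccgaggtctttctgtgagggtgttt
Uchl1: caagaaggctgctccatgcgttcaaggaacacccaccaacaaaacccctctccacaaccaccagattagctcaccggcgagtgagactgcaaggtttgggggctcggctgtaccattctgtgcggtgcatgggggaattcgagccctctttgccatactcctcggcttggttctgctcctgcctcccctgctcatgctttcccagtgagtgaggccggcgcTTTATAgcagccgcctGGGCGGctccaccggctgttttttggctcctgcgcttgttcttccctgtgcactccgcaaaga
Fbxo2: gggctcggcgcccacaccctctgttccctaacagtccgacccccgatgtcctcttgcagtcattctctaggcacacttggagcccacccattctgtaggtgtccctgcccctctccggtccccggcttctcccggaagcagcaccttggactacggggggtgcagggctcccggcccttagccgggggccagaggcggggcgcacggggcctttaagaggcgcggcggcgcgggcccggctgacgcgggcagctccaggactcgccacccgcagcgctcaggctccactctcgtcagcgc

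Each motif was searched on both strands. The GC box GGGCGG was in the windows of 6 of the 9 genes, namely Ubb (at its second start), Uba6, Ube3a, Nedd4, Nedd4l and Uchl1, and in 33.1% of all 33469 rat windows of this length. The CCAAT box CCAAT was in those of Ubb and Nedd4l and in 37.5% of all windows. TGACNNNGC, a short form of the antioxidant response element, was in those of Ubb (at its second start), Uba6 and Usp14 and in 12.1% of all. The TATA box TATAAA was found in that of Uchl1 only as TTTATA, its reading on the opposite strand, and on either strand in 14.2% of all. TGACGT, the core of the cAMP response element, was in that of Uba6, where 1 of its 2 matches overlapped the antioxidant match, and in 7.94% of all. Neither the full cAMP response element TGACGTCA (1.83% of all windows) nor GAANNTTC, a short heat shock element (8.59%), occurred in a window of the 9 genes. None of these letters occurred in the windows of Uba1 and Fbxo2. The GC content was 81.7% for Nedd4l, 70.3% for Fbxo2, 68.7% for Usp14, 58.7% for Uchl1, 55.3% for Ubb at the start shown and 55.0% for Uba1, against a median of 51.7% over all windows. A match describes letters and is not a bound site.

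**Figure D1:**
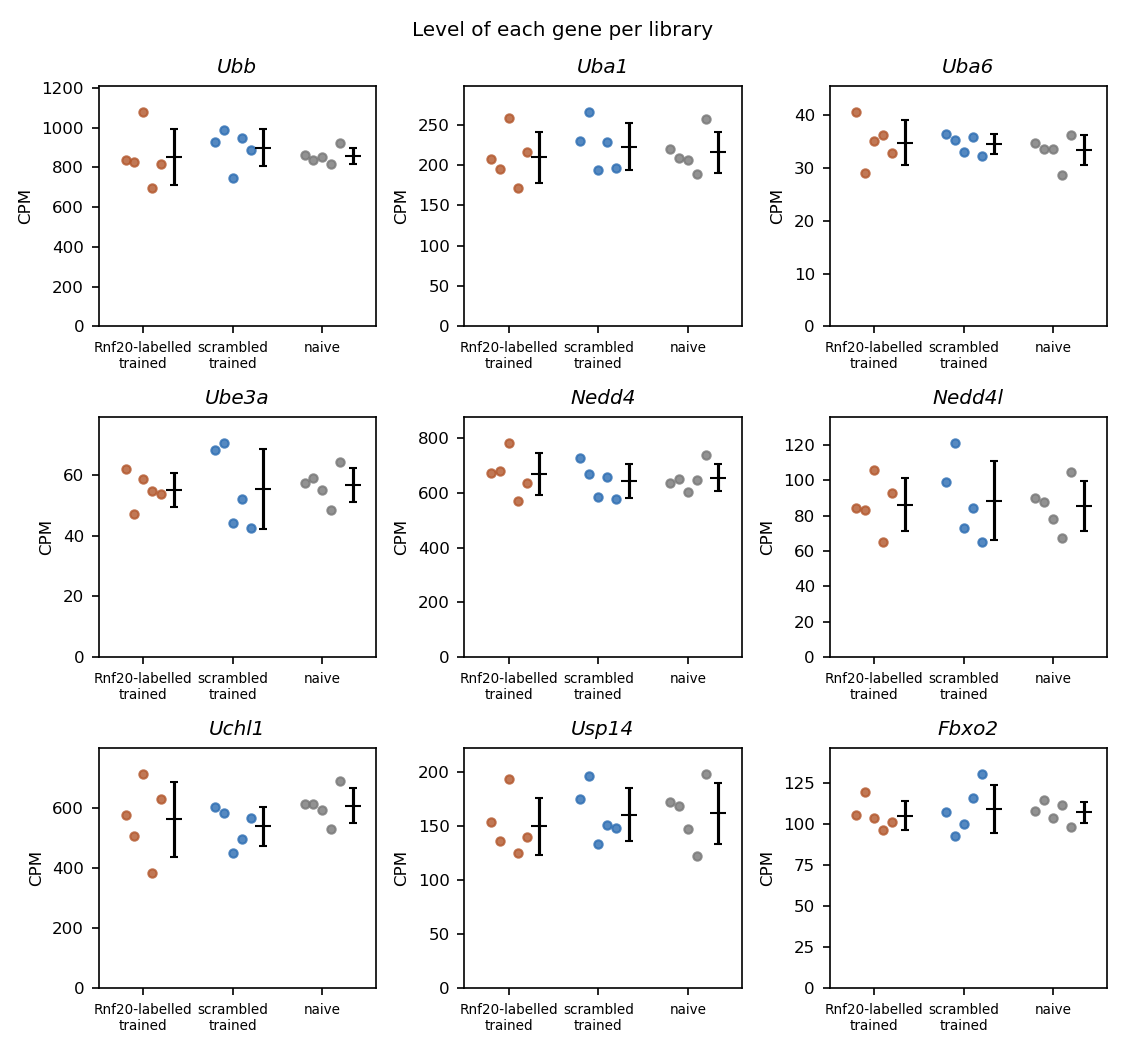
Level of each of the 9 genes in CPM (vertical axis, from 0) in each library, by group, with the mean and SD (n = 5 libraries per group) to the right of the points. For every gene the points of the 3 groups overlap, and in the Rnf20-labelled trained libraries Ubb ran from 696 to 1079 CPM and Uchl1 from 383 to 712 CPM.

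Ubb encodes a chain of ubiquitin repeats that is cut into single molecules, and its levels overlapped in all groups. Its level was 837, 827, 1079, 696 and 815 CPM in Rnf20-labelled trained libraries 4, 8, 14, 18 and 20. It was 925, 987, 748, 946 and 888 CPM in scrambled trained libraries 5, 6, 10, 15 and 16, and 859.9, 837, 852, 814 and 921 CPM in naive libraries 1, 2, 9, 11 and 12. Library 14 was the highest of the 15 and library 18 the lowest, both in the Rnf20-labelled trained group, while the naive libraries lay closest together. The groups averaged 851 ± 140.0, 899 ± 91.6 and 857 ± 40.0 CPM (SD, n = 5 each, in the same order). The log2 fold change was 0.07 (SE 0.11) for scrambled trained over naive, -0.08 (SE 0.11) for Rnf20-labelled over scrambled trained and -0.01 (SE 0.11) for Rnf20-labelled trained over naive. The 95% intervals ran from -10.9% to 23.4%, from -19.5% to 11.4% and from -15.6% to 16.8%. The ubiquitin repeats are shared with other genes, and how the counting treated reads that fit more than 1 gene is not given, so the count of Ubb is uncertain to that extent.

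Rps27a, which encodes ubiquitin fused to a ribosomal protein, did not pass the test in any comparison. It averaged 369 ± 72.1 CPM in Rnf20-labelled trained, 392 ± 72.3 CPM in scrambled trained and 354 ± 45.7 CPM in naive libraries (SD, n = 5 each). Its log2 fold change was 0.15 (SE 0.15) for scrambled trained over naive, -0.09 (SE 0.15) for Rnf20-labelled over scrambled trained and 0.06 (SE 0.15) for Rnf20-labelled trained over naive.

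Uba1 is the main ubiquitin-activating enzyme, which starts nearly all ubiquitin transfer. Its level was 208, 195, 258, 171 and 216 CPM in Rnf20-labelled trained libraries 4, 8, 14, 18 and 20, and 229.8, 266, 194, 228 and 197 CPM in scrambled trained libraries 5, 6, 10, 15 and 16. Naive libraries 1, 2, 9, 11 and 12 had 219, 209, 206, 189 and 257 CPM. Libraries 14, 6 and 12, from 3 different groups, held the high values, and library 18 the lowest. The groups averaged 209.7 ± 31.8, 223 ± 29.5 and 216 ± 25.4 CPM (SD, n = 5 each, in the same order). The log2 fold change was 0.05 (SE 0.12) for scrambled trained over naive, -0.09 (SE 0.12) for Rnf20-labelled over scrambled trained and -0.04 (SE 0.12) for Rnf20-labelled trained over naive, and the intervals of the percent change were -13.3% to 23.0%, -21.1% to 12.0% and -18.5% to 15.6%.

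Uba6, the second ubiquitin-activating enzyme, which also activates the ubiquitin-like protein FAT10, varied least of the 9 genes within groups, with an SD of 0.13 on the log2 CPM scale against a median of 0.23 over all genes tested. It had 40.6, 29.1, 35.1, 36.3 and 32.9 CPM in Rnf20-labelled trained libraries 4, 8, 14, 18 and 20, against 36.4, 35.4, 33.0, 35.9 and 32.2 CPM in scrambled trained libraries 5, 6, 10, 15 and 16. For naive libraries 1, 2, 9, 11 and 12 the values were 34.7, 33.6, 33.6, 28.7 and 36.2 CPM. Its highest library was 4, which was the highest for no other gene of the 9. The log2 fold change was 0.05 (SE 0.09) for scrambled trained over naive, 0.01 (SE 0.09) for Rnf20-labelled over scrambled trained and 0.06 (SE 0.09) for Rnf20-labelled trained over naive. The intervals reached from -8.93% to 18.0%, from -11.5% to 14.6% and from -8.33% to 18.8%.

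Ube3a is the HECT ligase whose maternal copy is lost in Angelman syndrome, a neurodevelopmental disorder, and neurons express mainly that copy. Its level was 61.7, 46.9, 58.5, 54.6 and 53.6 CPM in Rnf20-labelled trained libraries 4, 8, 14, 18 and 20, and 67.9, 70.5, 43.9, 51.9 and 42.4 CPM in scrambled trained libraries 5, 6, 10, 15 and 16. In naive libraries 1, 2, 9, 11 and 12 it was 57.2, 58.7, 54.8, 48.5 and 64.0 CPM. The scrambled trained group held both the highest library, 6, and the lowest, 16. The means were 55.1 ± 5.59, 55.3 ± 13.2 and 56.6 ± 5.66 CPM (SD, n = 5 each, in the same order), and no log2 fold change was farther from 0 than -0.04 (SE 0.14, Rnf20-labelled trained over naive). The intervals of the percent change were -20.1% to 19.4% for scrambled trained over naive, -18.5% to 21.8% for Rnf20-labelled over scrambled trained and -20.5% to 18.9% for Rnf20-labelled trained over naive. In neurons an antisense transcript overlaps Ube3a. The kit was stranded, but the strand setting of the counting is not given, so reads from both transcripts may be joined in this count.

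Nedd4 and Nedd4l are related HECT ligases that bind membrane proteins through WW domains; Nedd4l is known for its control of sodium and potassium channels. Nedd4 had 673, 681, 782, 570.1 and 636 CPM in Rnf20-labelled trained libraries 4, 8, 14, 18 and 20, against 727, 667, 583, 656 and 577 CPM in scrambled trained libraries 5, 6, 10, 15 and 16 and 634, 650.0, 604, 648 and 736 CPM in naive libraries 1, 2, 9, 11 and 12. Library 14 was the highest and library 18 the lowest, as for Ubb. Its log2 fold change was -0.03 (SE 0.10) for scrambled trained over naive, 0.06 (SE 0.10) for Rnf20-labelled over scrambled trained and 0.03 (SE 0.10) for Rnf20-labelled trained over naive. The intervals of the percent change ran from -15.1% to 13.4%, from -9.97% to 20.3% and from -11.7% to 18.1%.

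Nedd4l spread most within groups, with an SD of 0.29 on the log2 CPM scale. It had 84.4, 83.3, 106, 65.3 and 92.5 CPM in Rnf20-labelled trained libraries 4, 8, 14, 18 and 20, and 99.0, 121, 72.8, 84.5 and 65.0 CPM in scrambled trained libraries 5, 6, 10, 15 and 16. Naive libraries 1, 2, 9, 11 and 12 had 90.1, 87.7, 77.9, 67.2 and 105 CPM. As for Ube3a, library 6 was the highest and library 16 the lowest, and the groups overlapped almost wholly. The log2 fold change was 0.05 (SE 0.17) for scrambled trained over naive, -0.04 (SE 0.17) for Rnf20-labelled over scrambled trained and 0.01 (SE 0.17) for Rnf20-labelled trained over naive. The intervals were the widest of the 9 genes in all 3 comparisons, from -19.1% to 32.3%, from -23.8% to 24.6% and from -21.2% to 29.0%.

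Fbxo2 is an F-box protein enriched in neurons, a part of SCF ligases that recognises glycoproteins carrying high-mannose sugars. Its level was 105, 119, 104, 96.4 and 101 CPM in Rnf20-labelled trained libraries 4, 8, 14, 18 and 20, and 107, 92.7, 99.9, 116 and 131 CPM in scrambled trained libraries 5, 6, 10, 15 and 16. For naive libraries 1, 2, 9, 11 and 12 the values were 108, 115, 104, 112 and 98.4 CPM. Its order of libraries was unlike that of the ligases above: library 16, the lowest for Ube3a and Nedd4l, was the highest for Fbxo2, and library 6, the highest for both, was the lowest. The groups averaged 105 ± 8.61, 109 ± 14.8 and 107 ± 6.44 CPM (SD, n = 5 each, in the same order). The log2 fold change was 0.03 (SE 0.09) for scrambled trained over naive, -0.05 (SE 0.09) for Rnf20-labelled over scrambled trained and -0.03 (SE 0.09) for Rnf20-labelled trained over naive. The intervals were among the narrowest of the 9 genes, -10.8% to 16.3%, -15.7% to 9.99% and -14.1% to 12.0%.

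Uchl1, also called PGP9.5, is a deubiquitinase so abundant in neurons that it serves as a marker of them. It had 574, 504, 712, 383 and 629 CPM in Rnf20-labelled trained libraries 4, 8, 14, 18 and 20, against 601, 582, 448, 494 and 565 CPM in scrambled trained libraries 5, 6, 10, 15 and 16 and 613, 611, 592, 527 and 688 CPM in naive libraries 1, 2, 9, 11 and 12. The Rnf20-labelled trained group held the highest library, 14, and the lowest, 18, so that its range covered both other groups. The means were 560.5 ± 125, 538 ± 64.5 and 606 ± 57.6 CPM (SD, n = 5 each, in the same order). Scrambled trained over naive gave -0.17 (SE 0.14) on the log2 scale, an interval from -28.0% to 9.47%. Its edgeR p, 0.245 before and 0.713 after adjustment, was the smallest of the 9 genes in that comparison, and the libraries of the groups overlapped. Rnf20-labelled over scrambled trained gave 0.06 (SE 0.14) and Rnf20-labelled trained over naive -0.11 (SE 0.14).

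Usp14 is a deubiquitinase that binds the proteasome and removes ubiquitin from its substrates. Its level was 154, 136, 194, 125 and 140.3 CPM in Rnf20-labelled trained libraries 4, 8, 14, 18 and 20, and 175, 196, 134, 151 and 148 CPM in scrambled trained libraries 5, 6, 10, 15 and 16. In naive libraries 1, 2, 9, 11 and 12 it was 172, 169, 147, 123 and 198 CPM. The highest library, 12, and the lowest, 11, were both naive, and libraries 6 and 14 were nearly as high. The means were 149.9 ± 26.5, 160.7 ± 24.8 and 162 ± 28.4 CPM (SD, n = 5 each, in the same order). The log2 fold change was -0.01 (SE 0.14) for scrambled trained over naive, -0.10 (SE 0.14) for Rnf20-labelled over scrambled trained and -0.11 (SE 0.14) for Rnf20-labelled trained over naive, and the last interval ran from -25.0% to 14.4%.

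**Figure D2:**
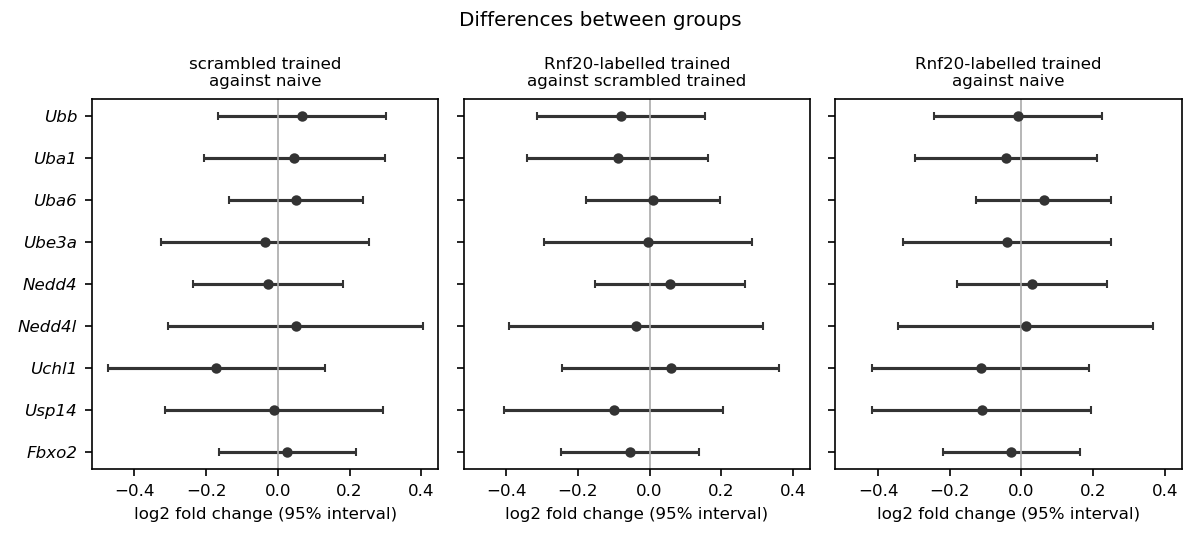
Log2 fold change of each of the 9 genes (points) with its 95% interval (bars) from edgeR's quasi-likelihood fit, in the 3 comparisons. Every interval holds 0, and the points lie between -0.17 (Uchl1, scrambled trained against naive) and 0.07 (Ubb, the same comparison).

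No difference between groups was detected for any of the 9 genes. In scrambled trained against naive libraries 5 log2 fold changes were above 0 and 4 below, with a median of 0.03 and a range of -0.17 to 0.07. Over all genes tested the median was -0.01, with 47.2% above 0 and 52.8% below. By edgeR's quasi-likelihood test with Benjamini-Hochberg adjustment over 14880 genes, 0 of the 9 passed adjusted p under 0.05, and 0 had an unadjusted p under 0.05. Among all genes 0% passed the adjusted threshold, and 1484 genes (9.97%) had an unadjusted p under 0.05, 6.62% with the trained group higher and 3.35% with it lower. The groups overlapped for all 9 genes, while over all genes 1.1% did not overlap with the trained group higher and 0.659% with it lower. DESeq2 called 58 genes in this comparison and limma-voom 0, none of them among the 9.

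Setting Rnf20-labelled trained against scrambled trained libraries, 3 log2 fold changes were above 0 and 6 below, with a median of -0.04 and a range of -0.10 to 0.06. Among all genes 50.7% were above 0 and 49.3% below. Between the trained groups again 0 of the 9 passed the adjusted threshold (0% of all genes), and 0 had an unadjusted p under 0.05, which 835 genes (5.61%) had, 2.63% of all genes with the Rnf20-labelled group higher and 2.98% with it lower. Against naive libraries, the Rnf20-labelled trained libraries had 3 values above 0 and 6 below, with a median of -0.03 and a range of -0.11 to 0.06, where 50.6% of all genes were above 0 and 49.4% below. There too 0 passed the adjusted threshold (0% of all genes) and 0 had an unadjusted p under 0.05, against 342 of all genes (2.3%), 1.21% higher in the Rnf20-labelled group and 1.09% lower. In both comparisons the groups overlapped for all 9 genes. Over all genes the share without overlap was 0.397% with Rnf20-labelled higher and 0.262% with it lower against scrambled trained, and 0.249% higher and 0.249% lower against naive libraries. DESeq2 called 1 gene in each and limma-voom 0, none among the 9. The 3 comparisons share libraries and are not independent. In the F test over the 3 groups the smallest p of the 9 genes was 0.484 for Uchl1 (adjusted p 0.943, edgeR), and 6.44% of all genes had an unadjusted p under 0.05 there. Between the trained groups, differences larger than the interval bounds were not seen at this number of libraries: the bounds of the 9 genes lay between -24.5% for Usp14 and 28.5% for Uchl1. An interval that holds 0 does not show that the levels were equal. In bulk RNA, fewer cells of a type and less RNA per cell cannot be told apart. Counting error was small beside these spreads, at most 4.89% of a level for Uba6 and 0.94% for Ubb in the library with the fewest counts.

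**Figure D3:**
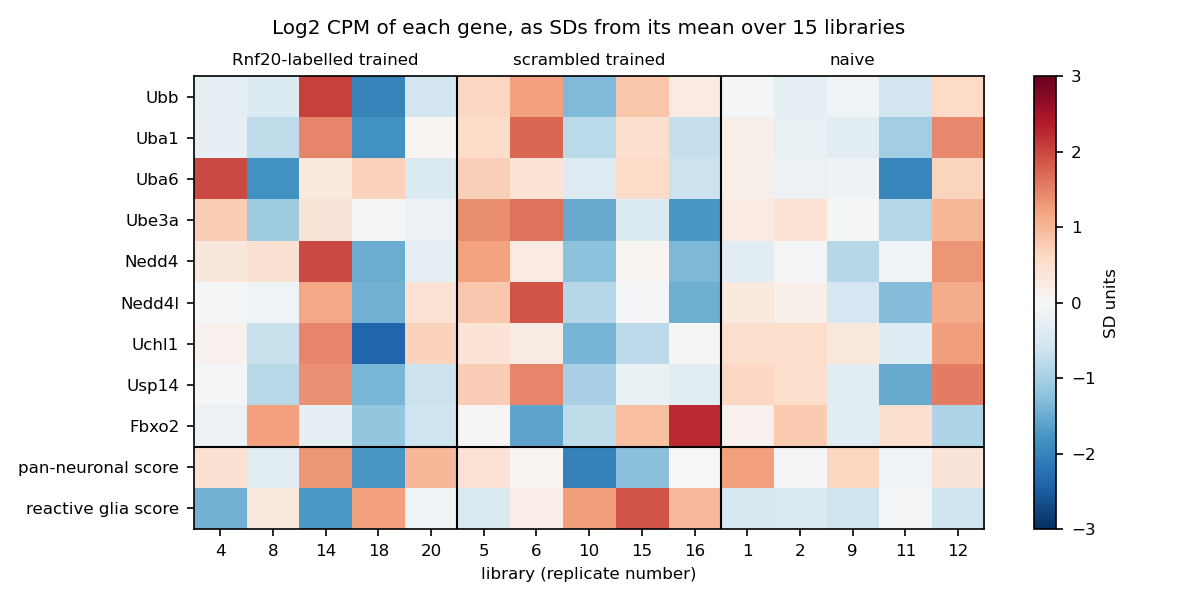
Log2 CPM of each gene (rows) in each library (columns, by group and replicate number), in SDs from the gene's mean over the 15 libraries, with the pan-neuronal and reactive glia scores below the line. Libraries 14, 6 and 12 are red for most of the genes and libraries 18 and 10 blue. The Fbxo2 row is below its mean in each of these libraries, and so differs from most genes in 14, 6 and 12 only.

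While no group difference was detected, most of the 9 genes varied together from library to library. Of the 28 pairs among the 8 genes other than Fbxo2, all had a Pearson r of log2 CPM above 0 over the 15 libraries, from 0.14 (Uba6 and Uchl1) to 0.92 (Uba1 and Nedd4l), with a median of 0.70. In 20 of them the r passed an adjusted p under 0.05 (permutation test with 100000 resamples, adjusted over 36 pairs), in 17 Spearman's rho did, and in 19 the r did with group means removed. Uba6 was the least tied of the 8: 1 of its 7 pairs passed, that with Ube3a, and their median r was 0.38. Of the 21 pairs among the remaining 7 genes 19 passed, with r from 0.45 to 0.92. This division was made after the values were seen. The 8 pairs with Fbxo2 had a median r of -0.28, and 6 of the 8 were below 0.

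Uba1 had the closest partners. With Nedd4l it reached r 0.92 and rho 0.93 (permutation, adjusted p 0.00036 for both), and r 0.88 without the 2 libraries farthest from the median of Uba1. With Usp14 it reached r 0.91 and rho 0.92 (permutation, adjusted p 0.00036 for both), and r 0.87 without the 2 farthest. Ubb and Uba1 had r 0.88 and rho 0.87 (permutation, adjusted p 0.00048 and 0.00072), and 0.80 without the 2 farthest. Nedd4l and Usp14 had r 0.87 and rho 0.83 (permutation, adjusted p 0.00054 and 0.00137), and 0.90 without the 2 farthest. With group means removed these 4 values of r were 0.94, 0.92, 0.87 and 0.89, so the shared movement lay within the groups. The polyubiquitin gene, the main E1 enzyme, the channel-binding ligase and the proteasome-bound deubiquitinase thus tended to be high and low together, though not in every library. The lowest library was 18 for Ubb and Uba1, 16 for Nedd4l and 11 for Usp14, and the r of Ubb with Nedd4l was 0.72.

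**Figure D4:**
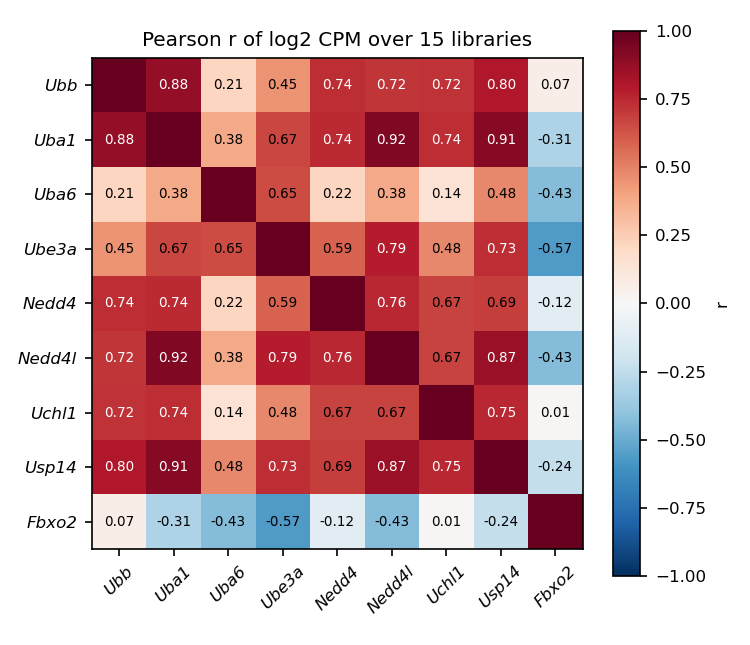
Pearson r of log2 CPM over the 15 libraries for each pair of the 9 genes, printed in the cells and shown by colour from -1 (blue) to 1 (red). The block of Ubb, Uba1, Nedd4, Nedd4l, Uchl1 and Usp14 holds values of 0.67 to 0.92, Uba6 is high only with Ube3a (0.65), and the row of Fbxo2 holds values of -0.57 to 0.07.

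Many genes share such movement in these libraries. The median r of Uba1 with the other 8 genes was 0.74, a value that 7.29% of all genes tested reached or passed with Uba1. For Ubb the median was 0.72 (5.68% of all genes), for Usp14 0.74 (6.81%), for Nedd4l 0.74 (8.38%), for Nedd4 0.68 (10.2%), for Uchl1 0.67 (11.7%), for Ube3a 0.62 (10.8%) and for Uba6 0.30 (16.4%). For Fbxo2 it was -0.28, which 82.7% of all genes reached or passed. The largest negative r was that of Fbxo2 with Ube3a, -0.57, whose adjusted p of 0.0442 (permutation) was past the threshold for r but not for rho (-0.45, adjusted p 0.139), and which was -0.20 without the 2 libraries farthest from the median of Ube3a. Without the 4 libraries far out on component 1, n = 11, the 28 pairs had a median r of 0.64 and the 8 pairs with Fbxo2 one of -0.52. There the r of Fbxo2 with Ube3a was -0.80, so this pair moved in opposite directions under the 2 ways of leaving libraries out.

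The libraries that set this pattern came from every group. Library 14 (Rnf20-labelled trained) was among the 3 highest for 6 of the 9 genes and library 12 (naive) also for 6, while library 6 (scrambled trained) was for 5. Library 18 (Rnf20-labelled trained) was among the 3 lowest for 7 genes, library 10 (scrambled trained) for 6 and library 11 (naive) for 5. In library 5 (scrambled trained) all 9 genes were above their own median, and in library 10 none was.

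The libraries also differed in neuronal and glial markers. The pan-neuronal score, the mean log2 CPM of 12 neuronal markers, was 7.16 to 7.91 in Rnf20-labelled trained, 7.09 to 7.70 in scrambled trained and 7.56 to 7.89 in naive libraries. The summed level of these markers was 5200.1 to 9006 CPM, 4592 to 8024 CPM and 6601 to 8016 CPM in the same order, and none of the 12 was at 0. The reactive glia score, from 11 tested genes of 12 listed, was 3.51 to 6.42, 4.78 to 7.06 and 4.60 to 5.16, with summed levels of 2396 to 7864 CPM, 4348 to 8898 CPM and 3157 to 4908 CPM, and none of the 11 was at 0. In scrambled trained against naive libraries the log2 fold changes of the pan-neuronal markers had a median of -0.20, 12 of 12 below 0, and those of the reactive glia markers one of 1.25, 10 of 11 above 0. Between the trained groups the medians were 0.13 (12 of 12 above 0) and -0.66 (11 of 11 below 0). Blood markers, 4 of 4 in the table and none at 0, summed to 222 to 1804 CPM in scrambled trained and 155 to 261 CPM in naive libraries. Their log2 fold changes had a median of 2.05, and their part in the values of the 9 genes was not tested. No marker of these 3 lists passed the adjusted threshold.

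Uchl1 followed both scores. Its level had r 0.89 and rho 0.85 with the pan-neuronal score (permutation, adjusted p 0.00018 and 0.00144 over 18 relations; the unadjusted p of r, 1e-05, is the smallest 100000 resamples can give). Without the 2 libraries farthest from the median score r was 0.79, and with group means removed 0.90. With the reactive glia score Uchl1 had r -0.77 and rho -0.81 (permutation, adjusted p 0.00684 and 0.0045), -0.74 without the 2 farthest and -0.81 with group means removed. Without the 4 libraries far out on component 1, n = 11, r was 0.60 with the pan-neuronal and -0.40 with the reactive glia score. Neither passed the adjusted threshold. Those 4 held the highest and the lowest values of both scores, so leaving them out also narrowed the range of the scores. The lower r therefore cannot show on which libraries the relation depends. Uchl1 is in neither marker list. The pan-neuronal and reactive glia scores tended to run in opposite directions. They were 7.91 and 3.51 in Rnf20-labelled trained library 14, and 7.09 and 6.42 in scrambled trained library 10. The relations of Uchl1 with them are therefore not separate results. What share of all genes reached such an r with either score was not computed.

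The other 8 genes did not pass. With the pan-neuronal score r was 0.56 for Ubb, 0.52 for Uba1, 0.52 for Nedd4l, 0.53 for Nedd4, 0.55 for Usp14, 0.44 for Ube3a, 0.09 for Uba6 and 0.02 for Fbxo2. With the reactive glia score it was between -0.63 (Nedd4) and -0.25 (Uba6) for 7 genes and 0.19 for Fbxo2. With group means removed, 9 of the 18 relations passed, including those of Ubb (0.74) and Usp14 (0.64) with the pan-neuronal score and of Usp14 (-0.71) with the reactive glia score. Without the 4 libraries, 0 of the 18 passed.

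With marker scores in the model the 9 genes still passed no adjusted threshold, though some values moved. With the reactive glia score as a covariate, Rnf20-labelled over scrambled trained gave -0.32 (SE 0.12) for Usp14, -0.25 (SE 0.11) for Uba1 and -0.23 (SE 0.10) for Ubb, with unadjusted edgeR p-values of 0.0172, 0.0356 and 0.0420 and adjusted p-values of 0.629, 0.629 and 0.630. These 3 of 9 stand beside 7.72% of all genes with an unadjusted p under 0.05 in that fit. The 3 genes varied together across libraries (Pearson r 0.80 to 0.91), so they do not count as 3 separate results. With 1 surrogate variable the values of Usp14, Uba1 and Ubb were -0.25, -0.21 and -0.19 (adjusted p 0.484, 0.511 and 0.522, edgeR). In that fit 9.13% of all genes had an unadjusted p under 0.05. Without the 4 libraries only Ubb had an unadjusted p under 0.05 in this comparison (-0.18, adjusted p 0.706, beside 6.99% of all genes). Leaving out the 3 libraries with the least choroid plexus signal, the values moved the other way for Usp14, to -0.07 (adjusted p 0.945), and for Ubb, to -0.05 (adjusted p 0.948), while Uba1 was at -0.14 (adjusted p 0.858, edgeR). Those 3 were scrambled trained libraries 5 and 16 and Rnf20-labelled trained library 20. Their choroid plexus scores (mean log2 CPM of 7 markers) were -0.80, 0.24 and 0.90, against 4.60 to 6.26 in naive libraries. The scrambled trained group then held only libraries 6, 10 and 15. In scrambled trained over naive Ubb gave 0.19 with the pan-neuronal score as a covariate (unadjusted p 0.0487, adjusted p 0.489, beside 10.2% of all genes) and 0.18 with 1 surrogate variable (adjusted p 0.365, beside 12.3%). Uchl1, at -0.17 in that comparison without a covariate, was at 0.03 with the pan-neuronal score, at 0.08 with the reactive glia score and at 0.01 with 1 surrogate variable in the model. It was at -0.05 without the 4 libraries and at -0.26 without the 3 with the least choroid plexus signal (adjusted p 0.909 and 0.521, edgeR).

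For each gene the 2 most similar profiles over the 15 libraries were taken among all genes tested, as a description by r of log2 CPM. Those of Ubb were Cct7 (0.95) and Nars1 (0.92), and those of Uba1 were Usp5 (0.97) and Cand1 (0.96). Those of Uba6 were Ripply2 (0.82), which had as few as 19 counts in a library, and Yipf6 (0.79), and those of Ube3a were Ppp1r12a (0.91) and Mob1b (0.90). For Nedd4 they were Rab1b (0.93) and Ccny (0.93), for Nedd4l Akap5 (0.97) and Marchf6 (0.97), for Uchl1 Rab3a (0.97) and Got1 (0.97), and for Usp14 Pfkl (0.96) and Ywhaz (0.95). Those of Fbxo2 were Slc34a1 (0.85), which had 6 to 15 counts per library, and Cd81 (0.81). None of the 9 genes was among another's 2 nearest.

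The wider pathway was read from a list of 237 other ubiquitin pathway genes, of which 228 were in the table and 226 were tested. None passed the adjusted threshold in any comparison by edgeR, DESeq2 or limma-voom. In scrambled trained against naive libraries 93 log2 fold changes were above 0 and 133 below, with a median of -0.02, and 13 genes had an unadjusted p under 0.05 (10 higher and 3 lower), beside 9.97% of all genes. In Rnf20-labelled trained against scrambled trained libraries 119 were above 0 and 107 below, with a median of 0.02, and 13 had an unadjusted p under 0.05 (10 higher and 3 lower), beside 5.61% of all. In Rnf20-labelled trained against naive libraries 114 were above 0 and 112 below, and 1 had an unadjusted p under 0.05, beside 2.3% of all.

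**Figure D5:**
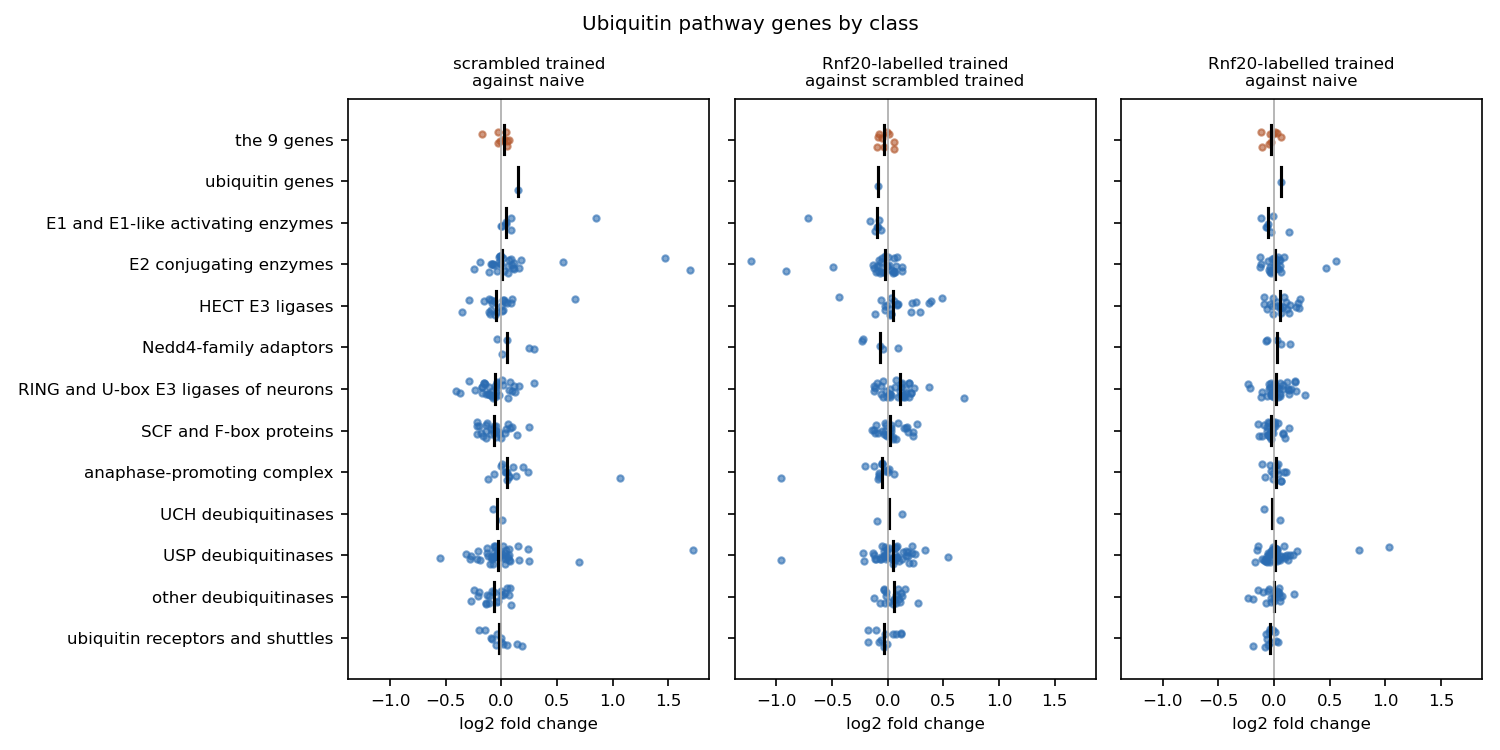
Log2 fold change of the 9 genes and of the 226 other ubiquitin pathway genes tested, by class (rows; each point is a gene, each black bar the class median; the row of ubiquitin genes holds Rps27a alone), in the 3 comparisons. Class medians lie close to 0, and the points farthest out in scrambled trained against naive libraries are Usp18 (1.72) and Ube2c (1.70).

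The genes named here are those of smallest p in their class, and none passed the adjusted threshold. Among the E1 and E1-like enzymes, Uba7, which activates the interferon-induced ubiquitin-like protein ISG15, averaged 12.45 ± 5.41 CPM in scrambled trained and 6.92 ± 1.5 CPM in naive libraries (SD, n = 5 each), a log2 fold change of 0.85 (SE 0.34, adjusted p 0.434, edgeR). Its value between the trained groups was -0.72 (SE 0.34). Usp18, which removes ISG15, averaged 10.2 ± 8.42 against 3.10 ± 1.61 CPM, a value of 1.72 (SE 0.61). Herc6, a HECT ligase that in mouse acts in the ISG15 pathway, averaged 14.8 ± 6.46 against 9.36 ± 2.39 CPM, a value of 0.66 (SE 0.29). These 3 genes are known to be induced by interferon, and their levels were widely spread in the scrambled trained group. With the reactive glia score as a covariate the values of Uba7, Usp18 and Herc6 in scrambled trained over naive were 0.39, 1.25 and 0.41, and without the 4 libraries far out on component 1 they were 0.35, 0.57 and 0.19. Leaving out the 3 libraries with the least choroid plexus signal, they were larger, 1.14, 2.14 and 0.91, with adjusted p-values of 0.206, 0.181 and 0.221 (edgeR).

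Among the E2 enzymes Ube2c, which works with the anaphase-promoting complex in mitosis, averaged 5.47 ± 2.50 CPM in scrambled trained and 1.68 ± 0.56 CPM in naive libraries (SD, n = 5 each), a log2 fold change of 1.70 (SE 0.57, adjusted p 0.384, edgeR). Between the trained groups it was -1.23 (SE 0.55). With the reactive glia score as a covariate these values were 0.62 and -0.64, without the 4 libraries far out on component 1 they were 1.38 and -1.35, and without the 3 with the least choroid plexus signal 2.03 and -1.48. Anapc10, a subunit of that complex, averaged 19.5 ± 0.77 CPM in scrambled trained and 16.6 ± 1.13 CPM in naive libraries, with no overlap, a value of 0.24 (SE 0.07, unadjusted p 0.00402, adjusted p 0.379, edgeR). Over all genes 1.1% had no overlap in that direction. In Rnf20-labelled trained libraries Anapc10 averaged 17.0 ± 0.95 CPM, also with no overlap with the scrambled trained libraries, a value of -0.20 (SE 0.07, adjusted p 0.832, edgeR), where 0.262% of all genes had no overlap in that direction. Of the 15 genes of the complex tested, 12 were above 0 in scrambled trained against naive libraries, as were 47.2% of all genes. Between the trained groups 13 were below 0, as were 49.3% of all genes. Both comparisons use the same scrambled trained libraries, so opposite signs in them are partly built in. The RING and U-box ligases had the reverse signs, with 27 of 37 below 0 and then 27 of 37 above 0.

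HECT ligases, the class of Ube3a, Nedd4 and Nedd4l, had 5 of 22 other members with an unadjusted p under 0.05 and a value above 0 in Rnf20-labelled trained against scrambled trained libraries, where 2.63% of all genes did. This count was taken from among several classes, comparisons and directions. Whether the 5 genes varied together across libraries was not tested, so they do not count as separate results. The pan-neuronal markers were also above 0 in this comparison, 12 of 12, and their part in the count was not tested. Ube3b, an E3 of the Ube3 group, averaged 68.3 ± 2.85 CPM in Rnf20-labelled trained and 59.2 ± 2.93 CPM in scrambled trained libraries (SD, n = 5 each) with no overlap, a value of 0.21 (SE 0.06, adjusted p 0.832, edgeR). Over all genes 0.397% had no overlap in that direction. The other 4, named after their values were seen, were Hectd4 (log2 fold change 0.39), Herc2 (0.29), Hecw1 (0.49) and Hecw2 (0.37), all with an adjusted p of 0.832 (edgeR). The values of Ube3a, Nedd4 and Nedd4l in that comparison were -0.01, 0.06 and -0.04.

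In the remaining classes the gene of smallest p did not pass the adjusted threshold either. In scrambled trained against naive libraries 1 of these was Nsmce2 (log2 fold change 0.29). It was listed with the RING and U-box ligases, but is a ligase for the ubiquitin-like protein SUMO. The others there were Rbx1, the RING subunit of SCF ligases (0.14), and Arrdc4, an adaptor of Nedd4-family ligases (0.29). Further ones were Bap1 among the UCH deubiquitinases (-0.07), Otud7a among the other deubiquitinases (-0.27) and Optn, a ubiquitin-binding autophagy receptor (-0.20). Between the trained groups the genes of smallest p were Mdm4 (0.37), Fbxl20 (0.23), Arrdc1 (-0.23), Bap1 (0.13), Usp34 (0.19) and Otud3 (0.27). Vcp, the segregase that extracts ubiquitinated proteins, was at -0.18 there. In Rnf20-labelled trained against naive libraries the only gene with an unadjusted p under 0.05 was Ufd1, a cofactor of Vcp, which averaged 60.8 ± 5.04 against 69.5 ± 2.76 CPM (SD, n = 5 each), a log2 fold change of -0.19 (SE 0.06). Of the class of Fbxo2, 21 of 28 SCF and F-box genes were below 0 in scrambled trained against naive libraries, with a median of -0.06, against 52.8% of all genes.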

How the data were processed

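RNA-seq was made from dorsal CA1 of 15 samples, grouped by their labels into 3 groups of 5. The submitters' processing notes name Trim Galore, FastQC, featureCounts 2.0.1, DESeq2 and the assembly Rnor_6.0 as used by the authors. No source used here gives the aligner, the annotation or the strand setting. One deposited table has raw read counts by gene and library, per the file headers. The other deposited table has a normalised signal, checked to be those counts divided by DESeq2 size factors (0 genes differed at a relative tolerance of 1e-06), and it served as an alternative scale only.

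Tests used edgeR 4.0.16 in R 4.3.3 (TMM scaling, filterByExpr, which kept 99.9% of the counts, and the robust quasi-likelihood F test on all 15 libraries with 12 residual degrees of freedom), limma 3.58.1, DESeq2 1.42.0 and sva 3.50.0, with Benjamini-Hochberg adjustment over 14880 genes and a threshold of 0.05. The fit was tested on simulated data first. SE values come from the fold change and its F statistic, and CPM is relative to TMM-scaled totals, with a prior count of 2 for log2 CPM. Gene lengths were not used, so levels are not compared between genes. Counting error is that of the counts alone.

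The rule for named genes took the 9 genes, Rnf20, the gene of smallest p in each pathway class and comparison where no gene passed, and the 2 genes of highest r with each of the 9. The 9 genes and all gene lists were chosen with earlier results of these data known. Some pathway genes are not reported here. The 4 libraries left out together were chosen by their score on component 1, after the data were seen, as were the 3 of lowest choroid plexus score.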

Additional observations from a re-analysis of the deposited data

How the results depend on the processing

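Under each of 27 alternatives 0 of the 9 genes and 0 of the 226 other pathway genes were called in any comparison. Over all genes DESeq2 called 58, 1 and 1 (scrambled trained against naive, Rnf20-labelled against scrambled trained, Rnf20-labelled trained against naive) and 9 in the test among the 3 groups, and 1 surrogate variable gave 2 calls in the first, where edgeR without it gave 0. Leaving out 1 library in turn gave 0 to 1 calls for Rnf20-labelled trained against naive and among the 3 groups; the 1 call came without naive replicate 9. No paired analysis was possible because the groups share no replicate numbers.

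The signs of the 9 genes' fold changes were unstable, as values this near 0 are: 35 of 324 recomputed values had the opposite sign, and 48 of 405 when 1 library was left out. Counting only values larger than their SE, Uchl1 in scrambled trained over naive turned to 0.0293 (pan-neuronal score as a covariate), 0.0842 (reactive glia score) and 0.0144 (1 surrogate variable), while it was -0.0484 without the 4 libraries and -0.256 without the 3 of lowest choroid plexus score; the cause was not tested. Among other pathway genes, in the same comparison Arrdc4 turned to -0.0740 and -0.174 with those scores, to -0.0384 with 1 surrogate variable and to -0.0391 without the 4 libraries at the ends of component 1, while Rps27a turned to -0.00316 and -0.0514 with the 2 scores and to -0.00734 with 1 surrogate variable. Between the trained groups, Arrdc1 turned to 0.106 and Bap1 to -0.00974 with the reactive glia score.

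Of the 18 relations with marker scores 2 passed, against 9 with group means removed, 0 without the 4 libraries and 2 to 4 with 1 library left out, the 4 without scrambled trained replicate 15. Without the 4 libraries r with the pan-neuronal score turned to -0.0571 for Ubb, -0.103 for Nedd4 and -0.411 for Fbxo2, and r with the reactive glia score to 0.161 for Ubb. With 1 library left out, r of Fbxo2 with the pan-neuronal score ran from -0.155 (without Rnf20-labelled trained replicate 18) to 0.123 (without scrambled trained replicate 15).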
